A study of Homo sapiens with 6 samples.

Results

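The BCL2 family sets the threshold at which a cell dies through its mitochondria. Of the genes measured in SK-N-BE cells, 10 were chosen by symbol as survival and death genes of this family: BCL2, BCL2L1, BCL2L2 and MCL1, which protect the cell, BAK1 and BOK, which open the outer mitochondrial membrane, and BCL2L11, BAD, BID and BMF, which carry only the BH3 domain. Each symbol matched 1 row of the 60676 gene rows in the deposited tables, so that all 10 members were found by their Ensembl identifiers. The rule uses symbols and no expression value, but the members were chosen with earlier results of these data known. Counts of calls among them are therefore not blind to the data.

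In this family, survival proteins hold the pore formers and the BH3-only proteins in inactive pairs. BH3-only proteins are made or released under stress, fill the groove of the survival proteins and set the pore formers free, after which cytochrome c leaves the mitochondria and caspases are switched on. Developing neurons depend on this balance, since many of them are removed by apoptosis, and BCL2 and MCL1 are known survival proteins of neuroblastoma cells.

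SK-N-BE is a human neuroblastoma line that takes on neuronal traits with retinoic acid. All cells were kept for 1.5 days in differentiation medium containing 10 μM retinoic acid and were transfected with siRNA, either a scrambled control (si-SCR, n = 3) or a pool directed at the second exon of CyCoNP (si-CyCoNP, n = 3). CyCoNP is a cytoplasmic long noncoding RNA of neural progenitors, produced from the gene LINC02381. Both groups come from 1 cell line, and the labels do not say whether the replicates were separate cultures, so that p-values measure only the spread between these libraries.

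Total counts ranged from 3762009 to 4799407 counted fragments per library, and mitochondrial genes took 7.06% to 8.21% of them. LINC02381 had 274, 208 and 315 counts in si-SCR versus 20, 30 and 12 in si-CyCoNP, and fell by 3.78 on the log2 scale (SE 0.190, edgeR adjusted p = 6.84e-14). Markers of noradrenergic neuroblastoma were all present, as 10 of 10 passed the expression filter, but 7 of them were lower and 1 was higher in si-CyCoNP, and their summed FPKM (fragments scaled by gene length and by the total of the library) was 2530 to 2986 in si-SCR versus 2128 to 2312 in si-CyCoNP. Of 10 markers of blood, endothelial, stromal, epithelial and glial cells, 3 reached 1 FPKM, PECAM1, COL1A2 and CDH1 were at 0 in every library, and the sums ranged from 5.497 to 9.44 in si-SCR versus from 6.79 to 9.62 in si-CyCoNP, with 1 marker higher and 1 lower. The part of these marker shifts in the results was not tested, and in bulk RNA fewer cells of a kind and less RNA per cell cannot be told apart.

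Upon CyCoNP depletion, 2 of the 10 members rose (BCL2L1 and BOK) and 3 fell (MCL1, BAD and BMF). The share of all 13966 genes tested that passed the same threshold, an edgeR adjusted p under 0.05, was 14.2% in the higher direction and 14.2% in the lower direction. The median log2 fold change was -0.18 over the members and 0.01 over all genes, and the median size of change, without sign, was 0.34 and 0.31. Under the stricter rule used in the study, which also asks for a log2 fold change beyond 1, none of the members was higher and only BMF was lower, against 2.28% and 2.98% of all genes. In 6 of 10 members the FPKM values of both groups did not overlap, which was also true of 40.3% of all genes tested. All members passed the expression filter, a mean of 1 FPKM in at least 1 group, and BMF passed it only through its si-SCR libraries.

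**Figure D1:**
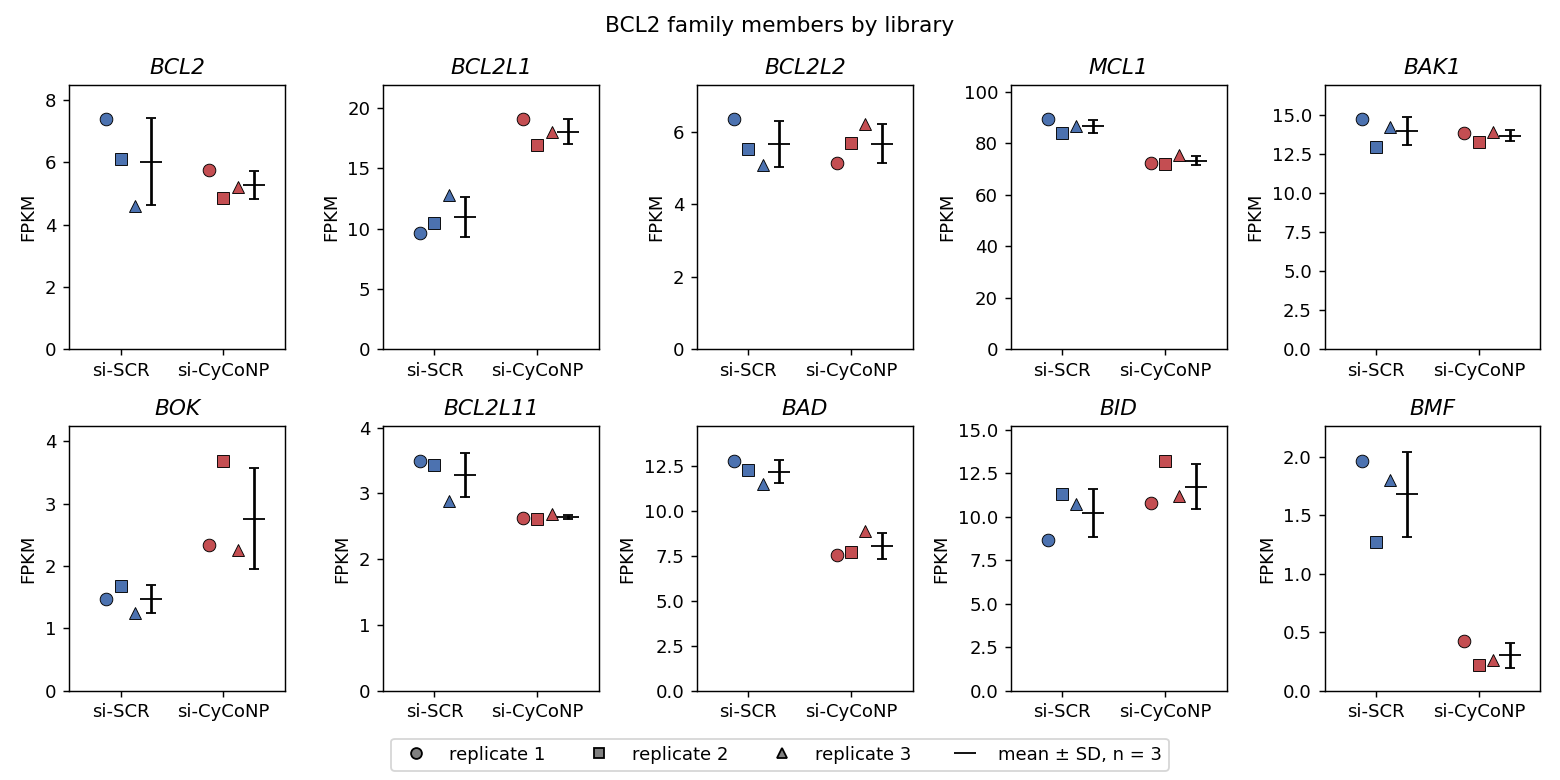
FPKM of each member in the 3 si-SCR (blue) and 3 si-CyCoNP (red) libraries, each panel on its own linear axis from 0. Symbols mark the replicate number, and the horizontal mark with its bar is the mean ± SD. The groups stand apart for BCL2L1, MCL1, BOK, BCL2L11, BAD and BMF and overlap for BCL2, BCL2L2, BAK1 and BID.

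CyCoNP carries predicted sites for miR-4492, a microRNA that the study recovered in its CyCoNP pull-down. The study proposes that CyCoNP holds this microRNA away from target mRNAs, which then fall when CyCoNP is depleted. The sequence that pairs with miR-4492 was therefore looked up in the members. The mature sequence from RefSeq (GRCh38.p14, chr11:118910765-118910781, plus strand) is printed with the seed, bases 2 to 8, in capitals.
hsa-miR-4492: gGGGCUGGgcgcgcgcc

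The reverse complement of the seed, CCAGCCC, occurred in the annotated 3′ UTR (GENCODE v44, GRCh38) of 3 of the 10 members, BCL2L1, BOK and BMF, and in 23.4% of the 10488 protein-coding genes tested. The matches are shown with 10 bases on either side, read along the mRNA, and capitals mark the match. The coordinates are those of the match itself.
BCL2L1, chr20:31665304-31665310, minus strand: tggctagaggCCAGCCCcacccaggag
BOK, chr2:241573793-241573799, plus strand: cctgggaagcCCAGCCCctcaggtgcc
BOK, chr2:241573880-241573886, plus strand: gagccccgagCCAGCCCtgtccctccc
BOK, chr2:241574047-241574053, plus strand: cggcggaaagCCAGCCCcggactcatc
BMF, chr15:40088655-40088661, minus strand: tcctggcagcCCAGCCCcatcggcagg

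None of these matches was followed by an A, the base that often flanks a strong site. The members with a match were both that rose and 1 of those that fell. The median 3′ UTR of the genes compared had 1397 bases. The 3′ UTRs of BCL2L1, BOK and BMF had 1491, 1709 and 3897 bases. Those of the members without a match ranged from 379 (BAD) to 5279 (BCL2). A match describes the letters only, and the level of miR-4492 was not analysed here. By RT-qPCR, the study found this level not affected by CyCoNP knock-down.

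Among the survival genes, BCL2L1 rose, MCL1 fell, and BCL2 and BCL2L2 did not pass the test. BCL2L1 (ENSG00000171552, chr20:31664452-31723989, minus strand) encodes BCL-xL, which keeps the pore formers closed and is a main survival protein of maturing neurons. Its FPKM was 9.63, 10.5 and 12.8 in si-SCR versus 19.1, 16.97 and 18.05 in si-CyCoNP, with means of 10.98 ± 1.64 and 18.02 ± 1.04 (SD, n = 3). Every si-CyCoNP library lay above every si-SCR library, although si-SCR replicate 3 came nearest. The log2 fold change was 0.65 (SE 0.120, 95% interval 0.40 to 0.89), a 1.56-fold increase (edgeR adjusted p = 0.000153). In GENCODE v44, 41.3% of its exon bases lie opposite the noncoding gene ABALON, which had 2 counts in all. Reads were counted per gene, so that the long survival form cannot be told apart from BCL-xS, a shorter splice form with the opposite role.

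MCL1 (ENSG00000143384, chr1:150560895-150579738, minus strand) encodes a short-lived survival protein that binds BAK1 and BCL2L11 with high affinity. Its FPKM was 89.2, 84.0 and 86.4 in si-SCR versus 72.5, 71.9 and 75.4 in si-CyCoNP, on counts of 1335 to 1807 per library. It was the most abundant member in all 6 libraries, its replicates were close to each other (86.6 ± 2.57 and 73.2 ± 1.88, SD, n = 3), and the groups stood apart. MCL1 fell by 0.31 on the log2 scale (SE 0.0772, 95% interval -0.47 to -0.15), to 0.807 times the control level (edgeR adjusted p = 0.00315). This was a small change measured precisely. In GENCODE v44, MCL1 shares 5.27% of its exon bases with ADAMTSL4-AS1 on the same strand, a gene with 86 counts in all libraries together. Here too, fragments on the shared bases may be missing from both counts.

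BCL2 (ENSG00000171791, chr18:63123346-63320128, minus strand) encodes the survival protein after which the family is named. Its FPKM was 7.38, 6.10 and 4.60 in si-SCR versus 5.76, 4.86 and 5.21 in si-CyCoNP. The control libraries spread more widely (6.03 ± 1.39, SD, n = 3) than the depleted ones (5.27 ± 0.451), and the si-CyCoNP values lay inside the control range. The log2 fold change was -0.26 (SE 0.134, 95% interval -0.53 to 0.02, edgeR adjusted p = 0.167). Single control libraries moved this value. Without si-SCR replicate 3, the lowest control, BCL2 passed with a change of -0.44 (edgeR adjusted p = 0.000698). Without si-SCR replicate 1, the highest, the change was -0.06. BCL2 also passed with the replicate number as a block (-0.25, edgeR adjusted p = 0.0464).

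BCL2L2 (ENSG00000129473, chr14:23298790-23311751, plus strand) encodes BCL-w, a survival protein of neurons and the germ line. It had an FPKM of 6.34, 5.52 and 5.09 in si-SCR versus 5.12, 5.67 and 6.22 in si-CyCoNP, which is nearly the same range in both groups. The log2 fold change was -0.06 (SE 0.156, 95% interval -0.38 to 0.26, edgeR adjusted p = 0.804). In GENCODE v44 its exons overlap those of the readthrough gene BCL2L2-PABPN1 on the same strand over 16.8% of their length, and that gene had 3 counts in all. Fragments on the shared bases may be missing from the counts of both genes.

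The make-up of the survival transcripts differed between the groups. MCL1 took 79.3%, 79.2% and 79.3% of the summed survival FPKM in si-SCR versus 70.8%, 72.3% and 71.9% in si-CyCoNP, and BCL2L1 took 8.55%, 9.90% and 11.8% against 18.6%, 17.1% and 17.2%. The shares of BCL2 (5.51% ± 1.19 and 5.16% ± 0.402, SD, n = 3) and of BCL2L2 (5.17% ± 0.480 and 5.55% ± 0.484) overlapped. Shares within a library sum to a fixed total, so that a higher share of 1 gene lowers the others, and they were not tested. As a ratio, MCL1 stood at 9.26, 7.9985 and 6.75 times the FPKM of BCL2L1 in si-SCR versus 3.803, 4.24 and 4.18 times in si-CyCoNP. BCL2L1 stood at 1.30, 1.72 and 2.78 times the FPKM of BCL2 in si-SCR versus 3.31, 3.49 and 3.47 times in si-CyCoNP. Both ratios stood apart between the groups, and both varied more among the control libraries. For MCL1 to BCL2L1 this had to be so, since MCL1 was lower and BCL2L1 higher in every si-CyCoNP library. That ratio thus adds nothing to the changes of the single genes. Neither ratio was tested. The summed FPKM of all 4 survival genes was lower in si-CyCoNP (109 ± 3.18 and 102 ± 2.74, SD, n = 3), because the loss of MCL1 in FPKM was larger than the gain of BCL2L1.

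**Figure D2:**
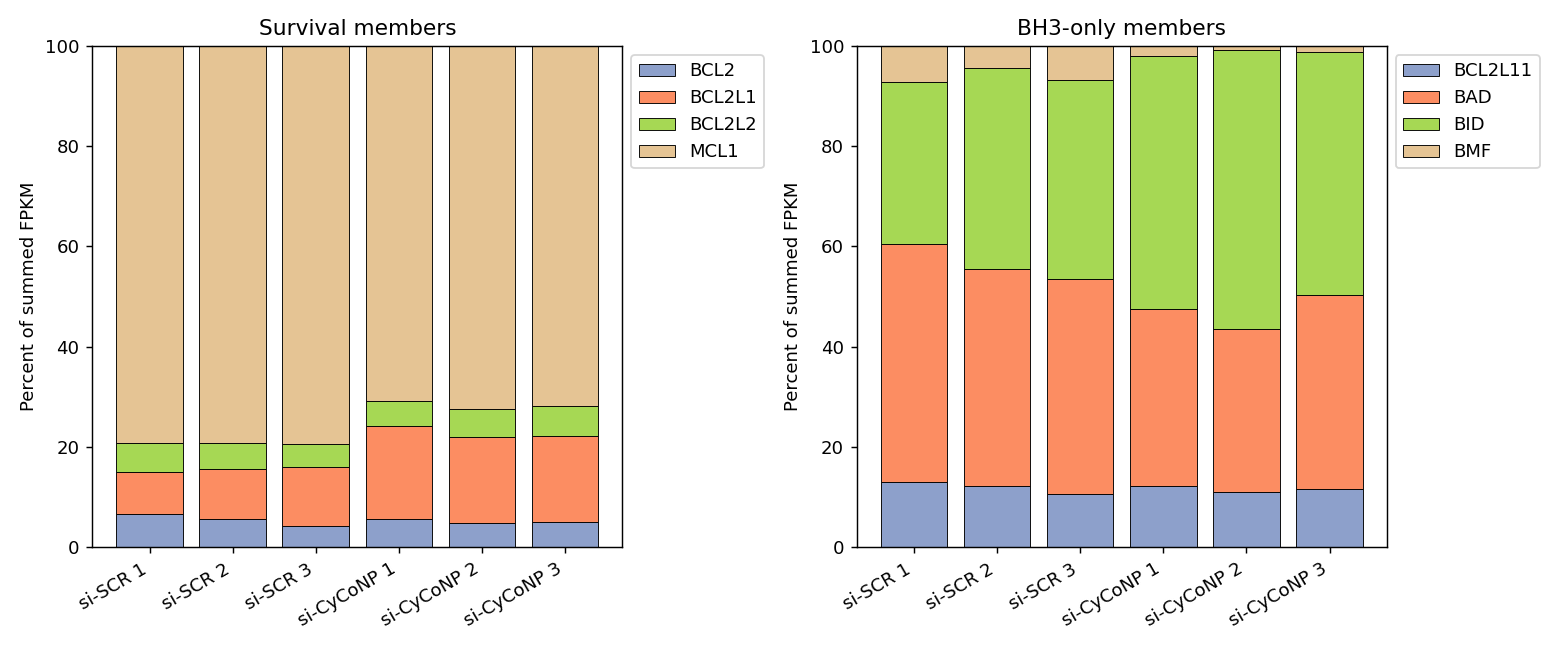
Share of each gene in the summed FPKM of the 4 survival members (left) and of the 4 BH3-only members (right), in percent, 1 bar per library. BCL2L1 is the segment that is wider in si-CyCoNP on the left (10.1% ± 1.61 in si-SCR versus 17.6% ± 0.846 in si-CyCoNP), and BMF is the top segment that is thin in si-CyCoNP on the right.

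Of the pore formers, BOK rose by a margin that single libraries decided, and BAK1 was close to its control level. BAK1 (ENSG00000030110, chr6:33572547-33580293, minus strand) sits in the outer mitochondrial membrane and forms the pore once it is released. Its FPKM was 14.7, 13.0 and 14.3 in si-SCR versus 13.8, 13.3 and 13.96 in si-CyCoNP, with all depleted libraries inside the control range. The log2 fold change was -0.10 (SE 0.132, edgeR adjusted p = 0.622), and its 95% interval ran from -0.37 to 0.17.

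BOK (ENSG00000176720, chr2:241551424-241574131, plus strand) is a relative of BAK1 that can act without release from survival proteins and is kept low by protein turnover. It was among the scarcest members, with an FPKM of 1.48, 1.69 and 1.25 in si-SCR versus 2.33, 3.69 and 2.25 in si-CyCoNP, on 16 to 42 counts per library. All si-CyCoNP libraries were above all controls, and si-CyCoNP replicate 2 was well above the other depleted libraries. The log2 fold change was 0.84 (SE 0.310, 95% interval 0.21 to 1.48), a 1.79-fold increase (edgeR adjusted p = 0.0421). BOK no longer passed without si-CyCoNP replicate 2 (log2 fold change 0.59, edgeR adjusted p = 0.255), without si-SCR replicate 1 (0.0692) or without si-SCR replicate 3 (0.111), nor with DESeq2 (0.118).

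Of the 4 BH3-only genes, BMF and BAD fell, and BCL2L11 and BID did not pass the test. BMF had the largest change of all members. The protein of BMF (ENSG00000104081, chr15:40087890-40108892, minus strand) is held at the cytoskeleton by a dynein light chain and is released when cells lose attachment. BMF had an FPKM of 1.97, 1.27 and 1.80 in si-SCR versus 0.421, 0.216 and 0.266 in si-CyCoNP, on 46, 26 and 47 counts against 11, 5 and 6. The highest depleted library was far below the lowest control. BMF fell by 2.52 on the log2 scale (SE 0.351, 95% interval -3.24 to -1.79), to 0.175 times the control level (edgeR adjusted p = 3.20e-06). Few counts remained in si-CyCoNP, so that the interval of the change is the widest among the members.

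BAD (ENSG00000002330, chr11:64269830-64284704, minus strand) encodes a BH3-only protein that binds BCL-xL, BCL2 and BCL-w and is kept idle by phosphorylation and 14-3-3 proteins. Its FPKM was 12.8, 12.3 and 11.5 in si-SCR versus 7.56, 7.72 and 8.90 in si-CyCoNP (12.2 ± 0.659 and 8.06 ± 0.730, SD, n = 3). The groups were well separated and the replicates tight. BAD fell by 0.67 on the log2 scale (SE 0.174, 95% interval -1.02 to -0.31), to 0.630 times the control level (edgeR adjusted p = 0.00453). Within each library BCL2L1 stood at 0.906 ± 0.186 times the FPKM of BAD in si-SCR versus at 2.25 ± 0.249 times in si-CyCoNP (SD, n = 3). This ratio could not overlap between the groups, as BCL2L1 was higher and BAD lower in every si-CyCoNP library. It restates those changes and was not tested. In GENCODE v44, 23.7% of the exon bases of BAD lie opposite GPR137, and GPR137 was counted separately.

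BCL2L11 (ENSG00000153094, chr2:111119378-111168444, plus strand) encodes BIM, which binds every survival protein of the family and drives the death of neurons deprived of growth factors. Its FPKM was 3.50, 3.43 and 2.89 in si-SCR versus 2.63, 2.62 and 2.68 in si-CyCoNP. Each si-CyCoNP library was below each control, yet the test was not passed, with a log2 fold change of -0.37 (SE 0.165, 95% interval -0.71 to -0.03, edgeR adjusted p = 0.0954). It passed without si-SCR replicate 3, the control nearest to the depleted libraries, with a change of -0.48 (edgeR adjusted p = 0.0388). BIM is made in several splice forms, which gene counts do not separate.

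BID (ENSG00000015475, chr22:17734138-17774770, minus strand) encodes the protein that caspase 8 cleaves to connect death receptors with mitochondria. It was the 1 BH3-only gene whose mean was higher in si-CyCoNP, with an FPKM of 8.69, 11.3 and 10.7 in si-SCR versus 10.8, 13.2 and 11.2 in si-CyCoNP. The groups overlapped, and the log2 fold change was 0.13 (SE 0.122, 95% interval -0.12 to 0.38, edgeR adjusted p = 0.462).

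Together the 4 BH3-only genes summed to 27.0, 28.3 and 26.9 FPKM in si-SCR versus to 21.4, 23.8 and 23.0 in si-CyCoNP. BID made up 37.3% ± 4.42 of this sum in si-SCR versus 51.6% ± 3.67 in si-CyCoNP (SD, n = 3), and BAD 44.6% ± 2.57 and 35.5% ± 3.11, so that the leading gene was BAD in each control library and BID in each depleted library. BMF contributed 6.16% ± 1.48 and 1.34% ± 0.552. The share of BCL2L11 overlapped between the groups (11.9% ± 1.13 and 11.6% ± 0.632). These sums and shares describe transcripts only and were not tested.

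**Figure D3:**
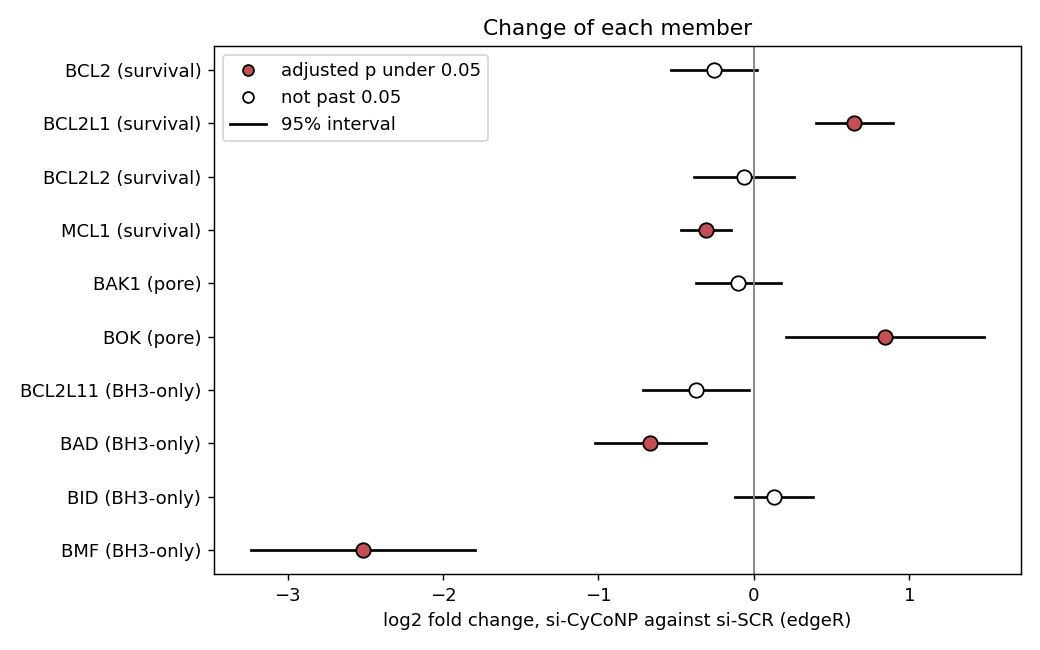
Log2 fold change of each member in si-CyCoNP against si-SCR from the edgeR fit, with 95% intervals and the role of each gene in brackets. Filled points have an adjusted p under 0.05. BCL2L1 (0.65) and BOK (0.84) lie to the right of 0, and MCL1 (-0.31), BAD (-0.67) and BMF (-2.52) to the left.

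The order of the members by FPKM, which takes gene length into account, was not the same in both groups. In si-SCR the order was MCL1, BAK1, BAD, BCL2L1, BID, BCL2, BCL2L2, BCL2L11, BMF and BOK. Of the 9 neighbouring pairs in this order, 4 had overlapping ranges: BAD with BCL2L1, BCL2L1 with BID, BCL2 with BCL2L2, and BMF with BOK. In si-CyCoNP the order was MCL1, BCL2L1, BAK1, BID, BAD, BCL2L2, BCL2, BOK, BCL2L11 and BMF, and 2 of 9 neighbouring pairs overlapped, BCL2L2 with BCL2 and BOK with BCL2L11. BCL2L1 thus moved from place 4 to place 2, above BAK1, BOK from place 10 to place 8, and BMF from place 9 to place 10. The highest member stood 58.9-fold above the lowest in si-SCR and 243-fold in si-CyCoNP, where BMF was the lowest.

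Other genes of the same pathway were taken from 6 lists, which were also chosen with earlier results of these data known. Of their 41 genes that passed the expression filter, 7 rose and 10 fell, against 14.2% of all genes in each direction, and the median log2 fold change was -0.07. Within a list, no more than 3 genes passed in either direction.

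Among other BCL2 family genes, 1 of 7 tested rose and 1 fell. BCL2L13, a mitochondrial family member that also serves mitophagy, rose from 16.2 ± 1.77 to 24.8 ± 0.590 FPKM (SD, n = 3), which is 0.54 on the log2 scale (edgeR adjusted p = 2.49e-05). BCL2L12, a distant relative linked to p53 control, fell by 1.002 on the log2 scale (SE 0.219, edgeR adjusted p = 0.000920), from 6.22 ± 0.471 to 3.26 ± 0.348 FPKM. BAX, the main partner of BAK1 in pore formation, was looked at after its values were seen and did not pass, with 12.97 ± 0.735 and 15.7 ± 1.39 FPKM and a change of 0.21 on the log2 scale (edgeR adjusted p = 0.243).

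Downstream of the pore, 1 of 8 mitochondrial release and apoptosome genes rose and 2 fell. CYCS, which encodes cytochrome c, rose by 0.49 on the log2 scale (edgeR adjusted p = 7.52e-05). ENDOG, a mitochondrial nuclease, had a change of -0.58 (edgeR adjusted p = 0.00214), and VDAC2, the membrane channel that holds BAK1 at the mitochondria, a change of -0.29 (edgeR adjusted p = 0.0136). Of the inhibitors of apoptosis, 1 of 4 genes tested rose and none fell. The gene that rose, BIRC5, encodes survivin, which serves cell division as well as survival. It went from 18.4 ± 2.80 to 28.6 ± 2.33 FPKM (log2 fold change 0.57, edgeR adjusted p = 0.000137).

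In the death receptor branch, to which BID is linked, 1 of 6 genes tested rose and 3 fell. The death receptor gene TNFRSF10B fell by 0.75 on the log2 scale (edgeR adjusted p = 0.0171) and RIPK1, a kinase of the receptor complex, by 0.64 (edgeR adjusted p = 0.00720). The adaptor gene FADD rose by 0.34 (edgeR adjusted p = 0.0462), from 18.5 ± 0.688 to 24.5 ± 3.07 FPKM (SD, n = 3).

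The regulators of the members held 3 genes that rose and 3 that fell of 12 tested, among them the largest change of the 6 lists. FOXO3, a forkhead transcription factor known to drive BCL2L11 in neurons, had 21.8, 21.3 and 23.0 FPKM in si-SCR versus 9.73, 9.57 and 9.47 in si-CyCoNP. It fell by 1.27 on the log2 scale (SE 0.0881, edgeR adjusted p = 2.45e-11), with very little spread within either group. DYNLL2, the dynein light chain that holds BMF, moved the other way, from 13.1 ± 0.945 to 22.7 ± 0.934 FPKM (SD, n = 3, log2 fold change 0.73, SE 0.0890, edgeR adjusted p = 4.12e-07). Within libraries, DYNLL2 stood at 6.61, 9.60 and 7.80 times the FPKM of BMF in si-SCR versus 55.4, 107 and 81.4 times in si-CyCoNP. This ratio was not tested, and in si-CyCoNP it rests on 11, 5 and 6 counts of BMF. Its separation follows from the changes of both genes and adds nothing to them. YWHAZ, a 14-3-3 protein of the kind that binds BAD, fell from 117 ± 8.77 to 77.4 ± 4.03 FPKM (log2 fold change -0.67, edgeR adjusted p = 2.86e-07). YWHAE, YWHAQ and DYNLL1 of the same list were named after their values were seen and did not pass. The 14-3-3 genes YWHAE and YWHAQ had changes of 0.12 (edgeR adjusted p = 0.254) and 0.08 (edgeR adjusted p = 0.444). The dynein light chain gene DYNLL1 had a change of -0.08 (edgeR adjusted p = 0.562). The other 3 that passed were named after their values were seen. AKT1 is a kinase that phosphorylates BAD (0.58, edgeR adjusted p = 2.45e-05). FBXW7 marks MCL1 for breakdown (0.33, edgeR adjusted p = 0.0339), and USP9X protects MCL1 from it (-0.23, edgeR adjusted p = 0.0324). These roles concern proteins, which were not measured. HUWE1, of the same list and also named after its values were seen, did not pass (0.01, edgeR adjusted p = 0.911).

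**Figure D4:**
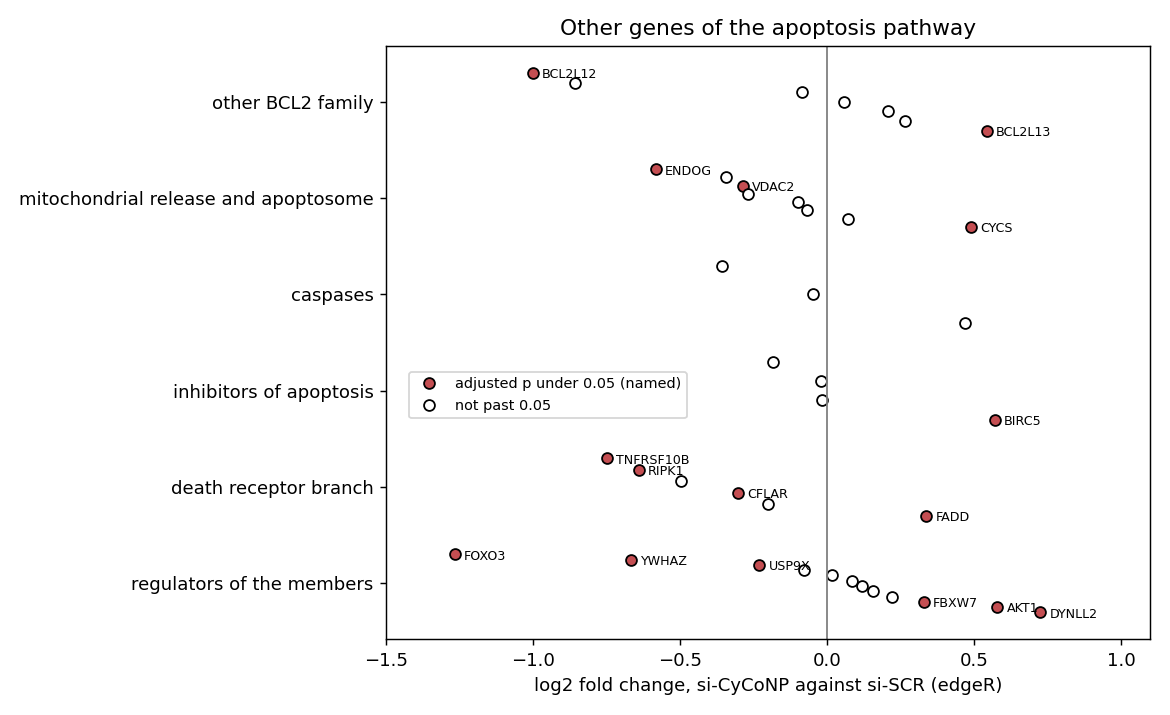
Log2 fold change of the other pathway genes that passed the expression filter, 1 point per gene with 1 gene left out, grouped by list and sorted within each list. Filled and named points have an edgeR adjusted p under 0.05, and FOXO3 (-1.27) lies farthest from 0.

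The promoters of the members were searched for short words. The RefSeq table (GRCh38.p14, 250 bases before to 50 after a start) held 8 of the 10 members, some with several windows. It held no entry for MCL1 and BCL2L2. Searched on both strands were a forkhead word, GTAAACA or TGTTTAC, which 3.42% of 35116 promoters hold, and the GC box GGGCGG or CCGCCC, which 45.0% hold. Shown are the promoter of BCL2L11, in which the forkhead word was found, and the first of 2 windows of BMF, the member with the largest change. Capitals mark the matches.
BCL2L11 promoter, chr2:111120664-111120963, plus strand: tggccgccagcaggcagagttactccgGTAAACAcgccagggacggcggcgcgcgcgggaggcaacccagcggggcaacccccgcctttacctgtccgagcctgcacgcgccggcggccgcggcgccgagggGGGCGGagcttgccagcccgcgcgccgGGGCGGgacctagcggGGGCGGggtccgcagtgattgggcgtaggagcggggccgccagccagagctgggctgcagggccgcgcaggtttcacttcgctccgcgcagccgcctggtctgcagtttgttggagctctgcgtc
BMF promoter, first window, chr15:40108830-40109129, minus strand: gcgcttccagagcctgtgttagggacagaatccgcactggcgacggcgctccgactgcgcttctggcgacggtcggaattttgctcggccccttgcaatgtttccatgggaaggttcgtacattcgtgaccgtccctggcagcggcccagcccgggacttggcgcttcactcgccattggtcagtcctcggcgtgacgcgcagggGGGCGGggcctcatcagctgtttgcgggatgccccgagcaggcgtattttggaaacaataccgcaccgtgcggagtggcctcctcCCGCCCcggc

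The BCL2L11 promoter held 1 forkhead word, 223 bases before the start, and 3 GC boxes 118, 91 and 75 bases before it. The first BMF window held 2 GC boxes, 1 of them 45 bases before the start, and the second (chr15:40106917-40107216, minus strand) held none of the words searched. GC boxes were also found in windows of BCL2L1, BAK1, BOK, BAD and BID, but not in that of BCL2, so that they do not set these promoters apart. No forkhead word was found in the windows of the members other than BCL2L11 in the table. The E-box CACGTG, which 7.26% of promoters hold and which reads the same on both strands, was found, among the 8 members in the table, in BID. There it is a single site shared by overlapping windows. The percentages of promoters count single windows, whereas some members have several. These matches describe the letters and were not measured as binding sites.

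**Figure D5:**
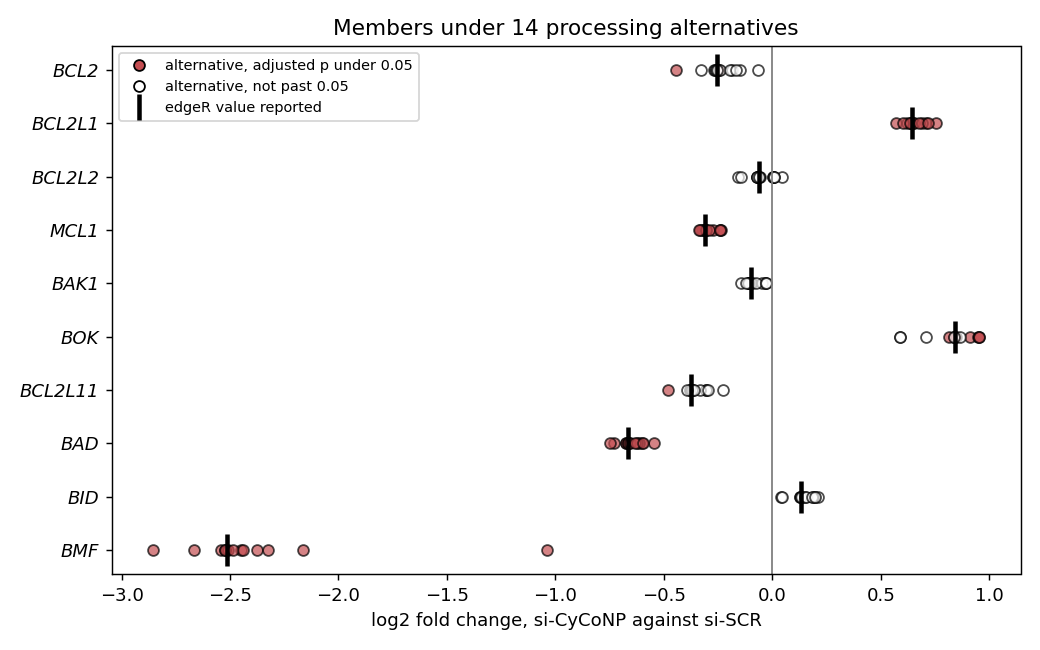
Log2 fold change of each member under 14 processing alternatives (points) beside the edgeR value reported (black bars). Filled points have an adjusted p under 0.05. All points of BCL2L1, MCL1, BAD and BMF are filled and lie on 1 side of 0, whereas BOK is filled in 8 of 14, BCL2 in 2 and BCL2L11 in 1. The BMF point nearest to 0 (-1.04) is the fit on log2(FPKM + 1), where the added 1 exceeds the FPKM of BMF in si-CyCoNP.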

How the data were processed

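RNA was extracted from 6 SK-N-BE samples, and stranded total RNA libraries were made after ribosomal RNA depletion and sequenced as paired ends. Per the submitters' processing notes, Trimmomatic 0.39, cutadapt 3.2, Bowtie2 2.4.2 and STAR 2.7.7a were used with GRCh38. The deposited counts are the authors' raw counts per Ensembl gene, taken from uniquely mapped fragments. The deposited FPKM values were made by the authors from these counts by gene length and library total, with no correction for composition.

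Here, 13966 of 60676 genes reached 1 FPKM on average in si-SCR or si-CyCoNP, and their counts were tested in edgeR 4.0.16 by quasi-likelihood (R 4.3.3, TMM), with Benjamini-Hochberg adjustment over all genes tested. The study's methods name DESeq2, run here (1.42.0) as an alternative beside limma 3.58.1 on log2(FPKM + 1) and log2(FPKM + 0.1). A call is an adjusted p under 0.05. The fit was tested on simulated data.

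The members and lists were chosen with earlier results of these data known. Named are all members, LINC02381 and, per pathway list, at most the 3 genes of smallest p that passed, other names being marked in the text. A gene of the lists enters only the counts and is not reported here. Whether counting used strand was checked on genes lying inside exons of another gene: 35.2% of 460 on the opposite strand were detected, against 8.68% of 599 on the same strand. Low counts of a gene that shares exon bases on the same strand, such as BCL2L2-PABPN1, thus do not show its level. Gene positions are from GENCODE v44 (GRCh38). The authors used another release: the length implied by both tables differed from the GENCODE v44 exon length for 6 of 10 members (MCL1 4371 against 6222 bases, BCL2L1 3314 against 4197, BCL2L2 4189 against 4840), so that shares of overlapping exon bases describe GENCODE v44 and not the exons counted. Intervals and SE come from the edgeR fit over replicates, and counting error is largest for BMF and BOK.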

Additional observations from a re-analysis of the deposited data

How the results depend on the processing

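BCL2L1 (0.57 to 0.76), MCL1 (-0.34 to -0.24), BAD (-0.75 to -0.55) and BMF (-2.85 to -1.04) kept their direction and their calls under all 14 alternatives that refit the data. The members called higher numbered 1, BOK being lost, with DESeq2 and with limma on log2(FPKM + 1) or log2(FPKM + 0.1), and 1 to 2 when single libraries were left out. The edgeR adjusted p of BOK was 0.0421, and over its alternatives p ranged from 0.0275 to 0.255. The members called lower numbered 3 to 5 when single libraries were left out, the 5 without si-SCR replicate 3. With a log2 fold change beyond 1 as well, 0 were higher and 1 lower. BCL2L2 turned from -0.06 to 0.0049 with library totals alone, 0.0059 with log2(FPKM + 1) and 0.0070 with log2(FPKM + 0.1), and ranged from -0.16 to 0.0439 over left-out libraries (0.0053 without si-CyCoNP replicate 1), all far inside its interval. Pathway genes called lower numbered 5 with either limma scale, and 6 to 11 without single libraries. The cause was not tested. The labels do not say whether equal replicate numbers pair the libraries, and the main fit left the number out. Deviations of equal numbers correlated weakly, at 0.0907, 0.0727 and 0.108, and 6 of 6 libraries correlated best with their own number. Deviations from a group mean cancel out within the group, so that these 6 are not independent and do not decide whether the libraries pair. With the replicate block, BCL2 passed (-0.25, edgeR adjusted p = 0.0464), members called numbered 2 higher and 4 lower, and genes called 2403 higher and 2368 lower, against 1982 and 1990 without it. Library totals alone moved the split of all calls to 2465 higher and 1574 lower and limma on log2(FPKM + 1) to 1765 and 1118. BMF and BOK are limited by depth, with 141 and 147 counts in all.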
